A study of Mus musculus with 8 samples.

Results

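The collagens form a large family of extracellular matrix proteins. Members were taken as every mouse gene whose annotated symbol is Col, a number, the letter a and a number. By this rule 42 of 18193 genes on the array type used for E18.5 lungs (E stands for embryonic day) and 31 of 8251 genes on the older array type used for E11.5 tissue were collagens, and all 31 were also among the 42. The E18.5 arrays compared lungs of FVB/N embryos that overexpress MIA, a small secreted protein known from melanoma and cartilage, with lungs of littermates. The 3 controls are labelled single transgenic and SP-C/MIA control, and the 3 bitransgenic lungs double transgenic and SP-C/MIA overexpressor, so every E18.5 lung carried a transgene. Which transgene the controls carried is not stated in the labels. SP-C is surfactant protein C, whose gene is active in the distal epithelium of the lung. The E11.5 arrays held 1 FVB/N lung and 1 FVB/N trachea with no transgene named. The labels do not say whether an array held RNA of 1 embryo or of several, so p-values measure the spread between these samples, which may be technical.

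Collagen molecules are trimers of alpha chains, and most chains are named for the type they build and their place in it. Fibrillar collagens make the tension-bearing fibrils of the interstitium, and fibril-associated collagens sit on their surface. Type IV collagen makes the sheet-like network of basement membranes, in which the products of Col4a1 and Col4a2 assemble together in nearly all tissues, whereas those of Col4a3, Col4a4 and Col4a5 assemble in the basement membranes of the alveolus and the kidney glomerulus. The products of Col4a5 and Col4a6 form another trimer, found around airway epithelium and smooth muscle. In the developing airway, types II, IX and XI are collagens of the cartilage rings.

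The type IV genes lie in pairs that are read in opposite directions from neighbouring start sites, and 1 window per available gene is shown because 4 of the 8 lowest p-values among the collagens at E18.5 belonged to these genes. RefSeq windows of 300 bases, from 250 before the start site to 50 after it in GRCm38.p6, matched 33 of the 42 members. Capitals mark, on either strand, the letters of the CCAAT box and those of the GC box, which is GGGCGG. The TATA box, spelled TATAAA, was searched as well.
Col4a1, chr8:11312777-11313076, minus strand: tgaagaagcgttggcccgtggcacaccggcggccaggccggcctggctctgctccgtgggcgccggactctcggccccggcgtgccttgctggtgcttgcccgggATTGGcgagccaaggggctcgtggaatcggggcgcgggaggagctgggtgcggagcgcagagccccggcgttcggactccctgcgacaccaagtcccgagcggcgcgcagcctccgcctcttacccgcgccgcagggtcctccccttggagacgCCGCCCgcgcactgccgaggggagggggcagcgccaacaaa
Col4a2, chr8:11312555-11312854, plus strand: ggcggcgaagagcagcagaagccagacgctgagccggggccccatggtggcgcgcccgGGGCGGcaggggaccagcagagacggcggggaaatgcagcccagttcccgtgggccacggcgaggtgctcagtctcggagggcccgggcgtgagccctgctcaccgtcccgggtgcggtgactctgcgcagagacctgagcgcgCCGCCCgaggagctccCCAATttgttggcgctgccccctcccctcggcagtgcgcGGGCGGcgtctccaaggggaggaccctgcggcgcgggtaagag
Col4a4, chr1:82586800-82587099, minus strand: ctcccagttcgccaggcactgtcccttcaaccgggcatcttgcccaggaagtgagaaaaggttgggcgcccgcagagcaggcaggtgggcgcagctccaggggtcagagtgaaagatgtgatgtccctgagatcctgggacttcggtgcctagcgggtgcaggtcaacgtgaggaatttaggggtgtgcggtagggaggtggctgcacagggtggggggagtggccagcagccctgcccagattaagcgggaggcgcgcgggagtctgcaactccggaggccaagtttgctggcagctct
Col4a5, chrX:141475169-141475468, plus strand: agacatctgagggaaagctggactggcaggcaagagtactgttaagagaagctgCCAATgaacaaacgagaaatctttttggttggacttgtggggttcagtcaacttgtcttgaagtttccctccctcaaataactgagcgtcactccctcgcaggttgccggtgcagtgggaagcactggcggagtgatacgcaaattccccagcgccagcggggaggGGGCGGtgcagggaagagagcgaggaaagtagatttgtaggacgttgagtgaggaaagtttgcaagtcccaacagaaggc
Col4a6, chrX:141474027-141474326, minus strand: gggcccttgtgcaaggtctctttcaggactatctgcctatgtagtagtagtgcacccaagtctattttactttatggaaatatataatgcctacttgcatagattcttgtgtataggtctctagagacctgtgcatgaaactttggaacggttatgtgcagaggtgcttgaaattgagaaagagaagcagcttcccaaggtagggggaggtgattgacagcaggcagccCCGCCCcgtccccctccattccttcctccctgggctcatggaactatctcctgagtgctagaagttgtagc

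The start sites of Col4a1 and Col4a2 were 21 bases apart, so their windows shared 78 bases, and 1 GC box at bases 11312812 to 11312817 of chromosome 8 lay in both. Col4a2 held 3 GC boxes and 1 CCAAT box, and Col4a1 and Col4a5 held 1 of each. Col4a6 held 1 GC box and Col4a4 held none of the searched letters. TATAAA was in none of these 5 windows. The annotated bodies of Col4a3 and Col4a4 shared 114 bases, and the start sites of Col4a5 and Col4a6 were 1343 bases apart. Over all 36 windows of collagen members, 61.1% held a GC box, 36.1% a CCAAT box and 13.9% a TATA box. The same letters stood in 35.7%, 37.4% and 13.6% of all 32851 RefSeq windows. These are matches of letters and say nothing of binding.

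Values are MAS5 signals on a linear scale, and changes are differences of log2(signal + pseudocount), bitransgenic minus control. Array medians ran from 415 to 464 at E18.5 and were 541 and 545 at E11.5, and the number of arrays limits the precision. Mia, the misexpressed gene, had a mean signal of 959 in control lungs and 38537 in bitransgenic lungs, 5.21 log2 units higher (limma adjusted p = 1.06e-06). Sftpc, the surfactant protein C gene of alveolar type II cells, was strong in all 6 E18.5 lungs, with mean signals of 84710 in controls and 85319 in bitransgenic lungs. The E11.5 lung had a signal of 1503 for Sftpc, against 257 in the trachea. Control 3 and bitransgenic 3 had the highest medians, 460 and 464 against 415 to 426, and together the highest value for 54.5% of all genes tested. They also stood apart from the other E18.5 arrays in the collagen values described here.

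Did MIA misexpression alter collagen transcripts in the E18.5 lung? At the threshold of 0.05, none of 34 tested collagens passed limma's test with Benjamini-Hochberg adjustment over 12625 genes, where 0.673% of all genes passed. The other 8 members, Col2a1, Col6a5, Col9a2, Col9a3, Col10a1, Col11a1, Col11a2 and Col19a1, were below the filter on low values (mean near a signal of 251), with signals of 13.0 to 391. Of the 34, 17 had a positive and 17 a negative change, with a median of 0.02 against 0.01 for all genes tested. An unadjusted limma p under 0.05 was reached by 8 collagens, or 23.5%, against 9.69% of all genes. They were Col4a2, Col4a3, Col4a4, Col6a3 and Col18a1 with lower, and Col4a5, Col25a1 and Col27a1 with higher signals in bitransgenic lungs.

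Counting by separation gave a like list. The 3 bitransgenic signals lay below all 3 control signals for 6 collagens, or 17.6%, against 7.56% of all genes, and above them for 5, or 14.7%, against 8.86%. The first group was the 5 lower genes just named and Col14a1. The second was the 3 higher genes, Col5a1 and Col12a1. Exact permutation of 3 against 3 gives no p under 0.1, so a single gene cannot pass that test. The count of 0 rose to 2 collagens (Col4a3 and Col18a1) with the mean of all probe sets of a gene, and to 5 (adding Col4a2, Col4a4 and Col25a1) with limma's array weights. Under those weights 10.6% of all genes passed, against 14.7% of the collagens. For 30 of the 34 the 95% interval of the change lay inside 2-fold in either direction, and the 4 exceptions were Col1a1, Col4a3, Col6a4 and Col26a1.

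**Figure D1:**
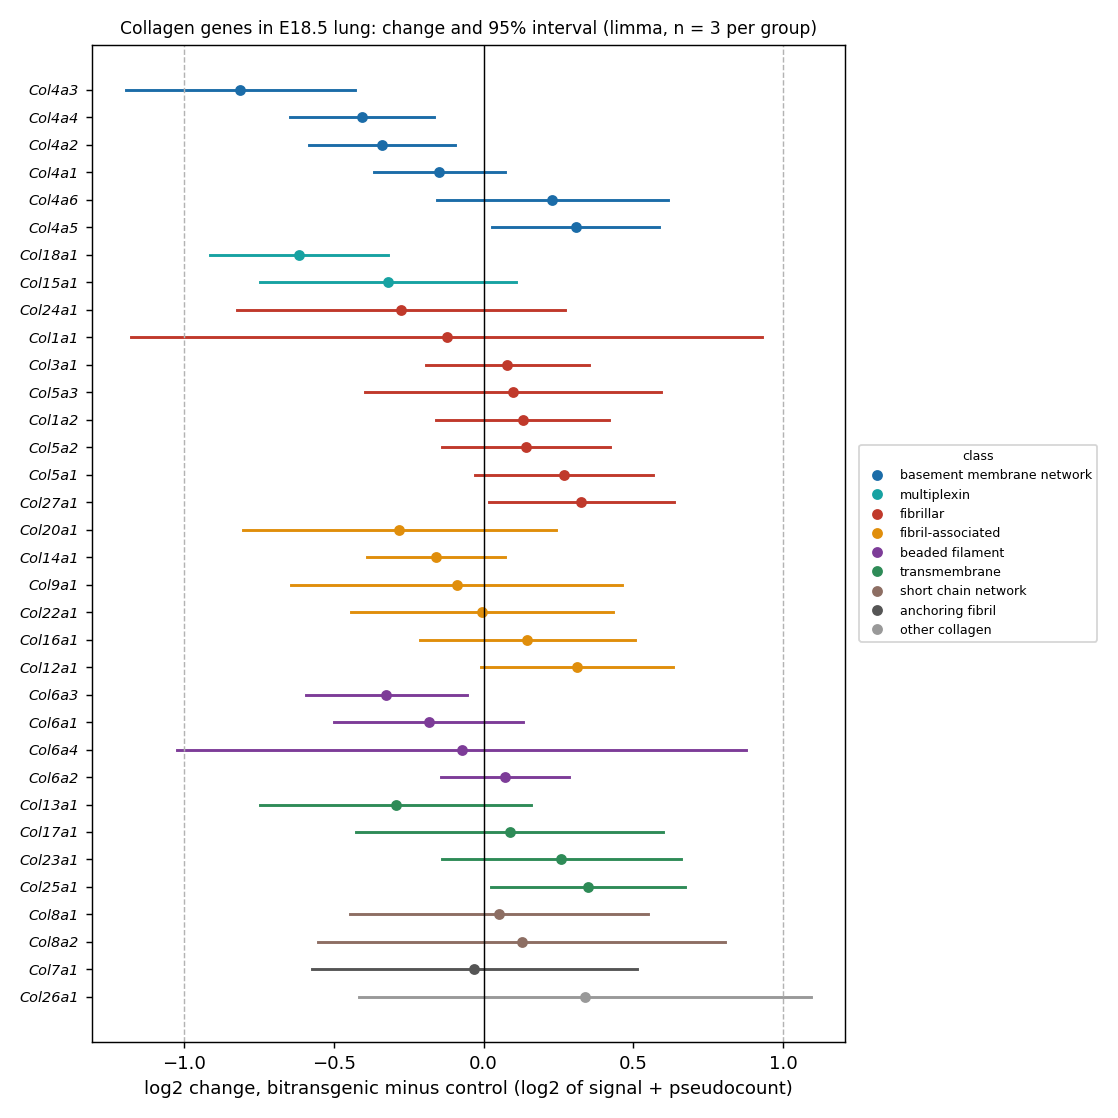
Log2 change (bitransgenic minus control, x axis) of the 34 tested collagens, by class. Points are limma estimates, lines 95% intervals (n = 3 per group), and dashed lines mark 2-fold. Col4a3 has the most negative value, -0.81, and Col25a1 the most positive, 0.35; the interval of Col1a1 spans -1.18 to 0.93.

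The basement membrane collagens differed in sign from chain to chain. Of 6 type IV genes, all tested, 4 had negative and 2 positive changes, with a median of -0.24. Col4a3, on chromosome 1 from 82586921 to 82722059, had signals of 2200, 2621 and 2996 in control lungs and 1205, 1474 and 1661 in bitransgenic lungs. Every bitransgenic value lay below every control value. The means were 2605 ± 398 (SD, n = 3) and 1447 ± 229 (SD, n = 3), and the log2 change was -0.81 (SE 0.17), with the smallest limma adjusted p among the collagens, 0.0831. Its rank by p was 134 of 12625. The other Col4a3 probe set gave 2222, 2354 and 2818 against 1344, 1661 and 994, again without overlap. Over the alternative settings the change of Col4a3 ran from -0.92 to -0.56 and its adjusted p from 0.000817 to 0.719, the latter with the Actb ratio described further on as a covariate.

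Col4a4, which encodes a partner chain of Col4a3 and lies beside it in the opposite direction, had signals of 21284, 22304 and 21333 in controls. Bitransgenic lungs had 15515, 17481 and 16014, so the groups were again separate. The log2 change was -0.41 (SE 0.11; limma adjusted p = 0.188). Its other probe sets read 16420, 18081 and 18189 against 10717, 15018 and 9673, and 1777, 2007 and 1943 against 1275, 1456 and 1221. All probe sets of this gene therefore had lower signals in every bitransgenic lung.

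Col4a5, the third chain of that trimer, is on the X chromosome and had a positive change. Its signals were 15985, 15955 and 12739 in controls and 18154, 18224 and 18685 in bitransgenic lungs, with no overlap. The log2 change was 0.31 (SE 0.12; limma adjusted p = 0.459), and the second probe set, at 3853, 4078 and 4357 against 4787, 5064 and 5269, was also separate and higher. Its neighbour Col4a6 gave 971, 1158 and 1427 against 1266, 1557 and 1359. These overlapped, and the change was 0.23 (SE 0.17; limma adjusted p = 0.759). Its second probe set was separate and higher, at 535, 732 and 750 against 852, 1011 and 780, a change of 0.36.

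The pair that serves nearly all basement membranes, Col4a1 and Col4a2 on chromosome 8, had negative changes. Col4a2 had signals of 38597, 37400 and 44626 in controls and 30102, 32699 and 32196 in bitransgenic lungs. The groups did not overlap, and the log2 change was -0.34 (SE 0.11; limma adjusted p = 0.314). Col4a1 had 67361, 69084 and 75402 against 61426, 61675 and 68140. Here bitransgenic 3 reached into the control range, and the change was -0.15 (SE 0.10; limma adjusted p = 0.713). A second Col4a1 probe set was separate, with 23591, 33067 and 43476 against 18008, 15789 and 21063 and a log2 change of -0.83. The size of the Col4a1 difference thus depended on the probe set read, and its sign did not.

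**Figure D2:**
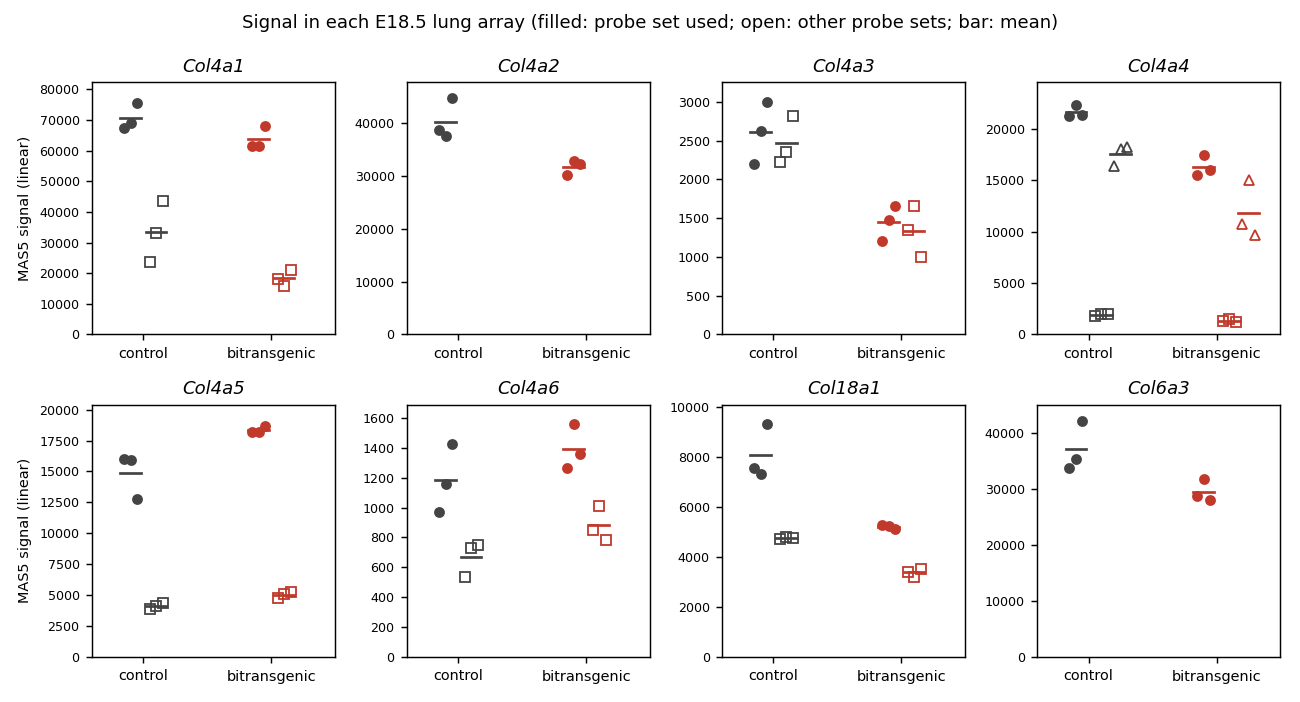
MAS5 signal (linear, y axis) of the 6 type IV genes, Col18a1 and Col6a3 in each E18.5 lung, with a scale of its own for each gene. Filled points are the probe set used, open points other probe sets past the filter, and bars group means (n = 3). All probe sets of Col4a3, Col4a4 and Col18a1 are lower in each bitransgenic lung than in any control, and both of Col4a5 are higher.

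The multiplexins, Col15a1 and Col18a1, are basement membrane collagens with carbohydrate chains attached. Col18a1, whose C-terminal fragment is endostatin, had signals of 7570, 7325 and 9316 in controls and 5280, 5229 and 5112 in bitransgenic lungs. The groups were separate, and the bitransgenic values lay close together. The means were 8070 ± 1086 (SD, n = 3) and 5207 ± 86.0 (SD, n = 3), with a log2 change of -0.62 (SE 0.13; limma adjusted p = 0.0920). A second probe set gave 4738, 4805 and 4765 against 3404, 3207 and 3531, a change of -0.49. Over the alternative settings the change ran from -0.68 to -0.43 and the adjusted p from 0.00305 to 0.713. Col15a1 had a change of -0.32 (SE 0.19; limma adjusted p = 0.678), with overlapping groups.

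Markers of some cells that lie on these membranes also differed between the groups, and those of other cells overlapped. Summed signals of 7 endothelial markers were 50884 to 68982 in controls and 38619 to 43375 in bitransgenic lungs, with 7 of 7 changes negative and none past the adjusted threshold. For 5 alveolar type I markers the sums were 140833 to 150488 against 109326 to 121181, and 2 of them, the water channel gene Aqp5 and Rtkn2, fell (limma adjusted p = 0.000207 and 0.0409). Sums over 4 alveolar type II markers were 161854 to 196166 against 89830 to 115845. Of these, Sftpa1, a surfactant protein gene, and the lipid transporter gene Abca3 fell, with log2 changes of -4.45 and -0.97 (limma adjusted p = 1.06e-06 and 0.00807). Sftpb was separate and lower but did not pass the threshold (limma adjusted p = 0.0692). It had 11620, 14704 and 42045 in controls and 4204, 4635 and 5665 in bitransgenic lungs. Sftpc overlapped between the groups. Sums over 5 mesothelial markers were 19246 to 30722 against 10259 to 13539. Only Msln of these fell (17202 to 5548; limma adjusted p = 0.00904), and the other 4 overlapped between the groups. Sums over 6 general epithelial markers overlapped, at 63531 to 72293 against 61764 to 72288. Within that list Epcam was separate and higher and Krt19 separate and lower, with log2 changes of 0.63 and -0.48. Mesenchymal sums over 9 markers overlapped too, at 246740 to 302192 against 221314 to 248083, with 7 of 9 changes negative. So did those over 6 smooth muscle markers, at 38605 to 47676 against 41524 to 48466, with 4 of 6 changes positive. Cardiac muscle sums over 5 markers varied widely and overlapped, at 33818 to 60520 against 42455 to 61851, with 2 of 5 changes positive. Of these only Myh7 passed the threshold, and it was higher in bitransgenic lungs (means of 5274 and 9654, limma adjusted p = 0.0293). The part of these markers in the collagen values was not tested. In whole lung, fewer cells of a type and less RNA per cell cannot be told apart.

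The Actb ratio, the signal of the 3' probe set over that of the 5' probe set of the actin gene Actb, is a sign of RNA integrity and labelling. It was 1.501, 1.465 and 1.285 in controls and 1.646, 1.506 and 1.615 in bitransgenic lungs, so it too separated the groups. With this ratio as a covariate the log2 changes became -0.56 for Col4a3, -0.37 for Col4a4, -0.18 for Col4a2, -0.43 for Col18a1 and -0.09 for Col6a3. The positive ones became 0.11 for Col4a5, 0.15 for Col25a1 and 0.20 for Col27a1. All 8 kept their sign with smaller values, and none passed the threshold, with limma adjusted p from 0.713 to 0.907. For Col6a3, Col4a5 and Col25a1 the change was smaller than its SE (0.13, 0.14 and 0.18), so its sign was not determined. Beyond this covariate, the part of RNA quality was not tested.

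Among the fibrillar collagens, 8 of 11 were tested, of which 6 had positive and 2 negative changes with a median of 0.11. Col1a2, a chain of type I collagen in bone, skin and lung interstitium, had signals of 47332, 45374 and 56871 in controls and 49542, 51735 and 62532 in bitransgenic lungs. Col3a1, the type III chain of distensible tissues, had 53356, 51701 and 62762 against 53414, 57420 and 66668. Both overlapped, with log2 changes of 0.13 (SE 0.13) and 0.08 (SE 0.12). Col1a1, the partner of Col1a2, had 5842, 6475 and 24096 in controls and 7292, 7647 and 12662 in bitransgenic lungs. Control 3 was far above the other controls, and the change of -0.12 (SE 0.47; limma adjusted p = 0.967) was not determined in sign. It was 0.53 without control 3, and the second probe set, at 6002, 5553 and 5735 against 6385, 5071 and 12420, gave 0.35.

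Col27a1, a fibrillar collagen of developing cartilage, had signals of 5245, 4609 and 4834 in controls and 6429, 5328 and 6805 in bitransgenic lungs. The lowest bitransgenic value lay just above the highest control value. The log2 change was 0.33 (SE 0.14; limma adjusted p = 0.481), while a second probe set overlapped between groups at 0.10. Col5a1, which starts type I fibrils, had a change of 0.27 (SE 0.13) without overlap, but its other probe sets read -0.19 and -0.16. Col2a1, the main collagen of cartilage, was not tested, with signals of 117, 38.9 and 278 in controls and 54.4, 37.6 and 88.5 in bitransgenic lungs. Sums over 8 cartilage markers were also low, at 2402 to 2758 against 2097 to 2706.

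Type VI collagen makes beaded filaments around cells, and 4 of its 5 genes on the array were tested. Col6a3 had signals of 33671, 35384 and 42198 in controls and 28783, 31751 and 27990 in bitransgenic lungs. The groups did not overlap, and the log2 change was -0.32 (SE 0.12; limma adjusted p = 0.404). Col6a1, a chain of the same trimer, overlapped at 31337, 33504 and 44857 against 30796, 31310 and 33323. Its change was -0.18 (SE 0.14), but 0.10 once the Actb ratio entered the fit. Col6a2, the remaining chain of that trimer, had a change of 0.07 (SE 0.10).

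Of the 4 transmembrane collagens, 3 had positive changes. Col25a1, a membrane collagen known from neurons and muscle innervation, had signals of 3919, 3527 and 2890 in controls and 4228, 4515 and 4404 in bitransgenic lungs. The groups were separate at a log2 change of 0.35 (SE 0.14; limma adjusted p = 0.474). A weaker probe set had the opposite sign, -0.22. Col17a1, the hemidesmosome collagen of basal epithelial cells, had 250, 419 and 428 against 375, 396 and 385, with overlap and a change of 0.09 (SE 0.23). The 6 fibril-associated collagens tested were divided, 2 positive and 4 negative, among them Col12a1 at 0.31 (SE 0.14) and Col14a1 at -0.16 (SE 0.10), both without overlap. The 20 tested members outside the rule for naming genes had changes from -0.32 (Col15a1) to 0.34 (Col26a1) and no limma adjusted p below 0.540. Where a collagen had at least 2 probe sets past the filter, 13 of 18 had the same sign in all, and Col1a1, Col5a1, Col5a2, Col6a2 and Col25a1 did not.

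Part of the spread among arrays was shared by many collagens. Control 3 held the highest value for 14 of the 34 and bitransgenic 3 for 12, together 76.5%, against 54.5% of all genes tested. On the probe sets used, type I and type III collagens were high in both, while Col4a5 and Col25a1 were lowest in control 3. The other Col1a2 probe sets were again highest in these arrays within each group. In control 3 the second probe set of Col3a1 was lowest, at 8957, and that of Col1a1 was not raised, at 5735. There the second Col4a5 probe set was the highest of the controls, at 4357, and the weaker Col25a1 probe set the highest of all arrays, at 515. Without control 3 and bitransgenic 3, a choice made after the values were seen, Col18a1 passed the test (limma adjusted p = 0.0378) and no other collagen did.

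**Figure D3:**
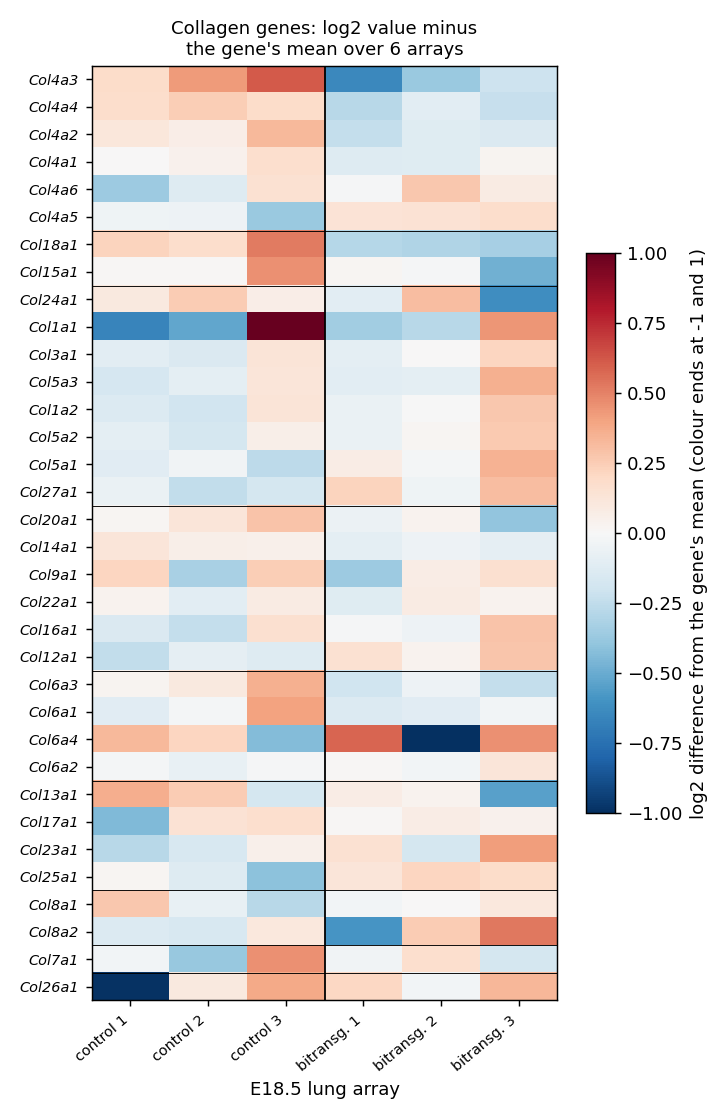
Difference of each array's log2 value from the gene's mean over 6 arrays (colour), for the 34 tested collagens in rows grouped by class and the E18.5 lungs in columns. Red is above and blue below the mean, with colours ending at 1 log2 unit. Col1a1 is high in control 3, and Col4a3, Col4a4, Col4a2 and Col18a1 are above the mean in all 3 controls and below it in all 3 bitransgenic lungs.

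Collagen chains are hydroxylated and folded in the endoplasmic reticulum, exported, trimmed at their ends outside the cell and cross-linked. Of 78 gene symbols listed for these steps, for collagen receptors and for degradation, 65 were on the array and 56 were tested, and none passed the adjusted threshold at E18.5. There were 21 positive and 35 negative changes, with a median of -0.04. An unadjusted limma p under 0.05 was reached by 9, or 16.1%, against 9.69% of all genes, and the smallest limma adjusted p was 0.125, for Pcolce2. With array weights 10 passed, or 17.9%, against 10.6% of all genes.

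Genes that modify and fold the chains were evenly divided, 8 positive and 8 negative. Serpinh1, the collagen chaperone, had signals of 21170, 18563 and 10735 in controls and 16570, 19856 and 11106 in bitransgenic lungs. The lowest values of both groups came from the arrays numbered 3, and the log2 change was -0.07 (SE 0.27). P4ha1, a prolyl hydroxylase subunit, and Plod2, a lysyl hydroxylase, had changes of -0.09 (SE 0.15) and 0.03 (SE 0.14). P3h2, a prolyl 3-hydroxylase that acts on type IV collagen, had 777, 919 and 844 against 1728, 1273 and 1210. These groups were separate, at 0.66 (SE 0.17; limma adjusted p = 0.184). Mia3, a relative of Mia that loads procollagen into transport carriers, had a change of 0.12 (SE 0.17), among 13 export genes with 6 positive and 7 negative values.

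Of 9 genes that trim and cross-link collagen, 2 had positive and 7 negative changes. Bmp1, the protease that removes C-terminal propeptides, had signals of 4324, 4433 and 4815 in controls and 6193, 6188 and 8993 in bitransgenic lungs. Pcolce2, an enhancer of that cleavage, had 4219, 4667 and 4065 against 2694, 3226 and 2321. Both were separate, in opposite directions, at 0.62 (SE 0.16; limma adjusted p = 0.190) and -0.65 (SE 0.15). The related enhancer Pcolce had a change of -0.17 (SE 0.14). Among the lysyl oxidases that start cross-links, Loxl1 had a change of 0.36 (SE 0.11; limma adjusted p = 0.314), and Lox one of -0.28 (SE 0.13; limma adjusted p = 0.576). Sparc, a collagen-binding matrix protein, had -0.03 (SE 0.11). The collagen receptors had 1 positive and 7 negative changes, with none past the adjusted threshold. Separate lower signals were found for 4 of the 8 receptors tested, against 7.56% of all genes. Over all 56 genes tested, receptors and degradation genes included, they were found for 10, and separate higher signals for 4, against 8.86% of all genes. The 10 were 4 receptors, 2 degradation genes, 2 export genes and 2 genes that trim and cross-link. Among the 4 receptors was the integrin gene Itga1, at 2582, 2603 and 2703 against 1910, 1861 and 2068 (log2 change -0.42, SE 0.13). Another, Itga2, had signals near the filter, 316 to 337 against 277 to 295, and a change of -0.13 (SE 0.20). Timp3, an inhibitor of matrix proteases, had 25803, 27835 and 33561 against 18651, 22509 and 16164, a change of -0.61 (SE 0.15; limma adjusted p = 0.156).

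The E11.5 arrays were made to find genes that differ between lung and trachea. With 1 array per tissue there is no test, and the values describe these arrays only. Of the 31 collagens, 22 passed the filter and 21 of these also had a higher signal above the table's median, out of 5114 such genes. The trachea had the higher signal for 18 of the 21, or 85.7%, against 50.7% of all genes compared, and the median log2 ratio of lung over trachea was -0.55 against -0.01. More than 2-fold higher in trachea were 4, or 19%, against 2.25% of all genes, and none was more than 2-fold higher in lung, against 1.17%.

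The 4 genes were Col8a1, Col9a3, Col11a1 and Col26a1. Col8a1 and Col11a1 were above the table's median of 543 only in trachea, and the lung signal of Col8a1 was also under the filter's 305. Both were therefore compared only through the tissue where they were high, under a rule that was the same for all genes. Col11a1, a fibrillar collagen of cartilage, had a signal of 471 in lung and 2206 in trachea, 4.12-fold higher in trachea on the log2(signal + pseudocount) scale. Col9a3, a type IX chain that decorates cartilage fibrils, had 775 and 2280 (2.75-fold), though its other probe set, at 180 and 157, was below the filter. The mean of both probe sets gave a log2 ratio of lung over trachea of -0.66 in place of -1.46. Its partner chains Col9a1 (1005 and 1988) and Col9a2 (1164 and 1580) stood 1.90-fold and 1.33-fold higher in trachea. All 3 type IX chains thus had the higher signal in trachea. Col26a1 had 1753 and 5695 (3.14-fold). Col8a1, a short chain collagen of vessel walls and the cornea, had 160 and 938 (4.18-fold). Its lung value is under the filter and close to the pseudocount of 84.3, so the size of the fold is not determined. Over the alternative settings its log2 ratio of lung over trachea ran from -2.55 to -1.36.

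Cartilage markers were low on both arrays. Col2a1 had 62.7 in lung and 48.2 in trachea, below the filter. Of 5 cartilage markers none was high enough to compare; the aggrecan gene Acan had 36.0 and 34.6, Matn1 64.8 and 57.5, and Hapln1 296 and 19.7. Mesenchymal markers had the higher signal in trachea for 7 of 7 compared, with sums over 8 genes of 18574 in lung and 28573 in trachea, and smooth muscle markers for 4 of 4, with sums over 6 genes of 7302 and 16375. All 3 epithelial markers compared were higher in lung. The part of tissue makeup in the collagen ratios was not tested.

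The widely expressed collagens stood higher in trachea by less than 2-fold, or near equal. Col4a1 had 5621 in lung and 8274 in trachea, Col4a2 4072 and 6594, and Col18a1 3521 and 6137, with log2 ratios of lung over trachea of -0.55, -0.68 and -0.79. Basement membrane (3 of 3), multiplexin (2 of 2) and type VI genes (3 of 3) all had the higher signal in trachea. Col1a2 had 9254 and 14588 and Col3a1 11325 and 14811, ratios of -0.65 and -0.38, but other probe sets of both had ratios near or above 0, up to 0.19 for Col1a2. Col1a1 had 7693 and 7830, a ratio of -0.03, while its second probe set read 3836 and 9162, a ratio of -1.24. The type I and type III values therefore depended on the probe set. The 3 collagens with the higher signal in lung, Col5a2 (12278 and 11024), Col7a1 (783 and 780) and Col13a1 (1154 and 1021), were close to equal in both tissues.

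Of the biosynthesis, receptor and degradation genes, 31 were compared at E11.5, with 10 higher in lung and 21 in trachea. Among all genes compared, 50.7% were higher in trachea. The median log2 ratio of lung over trachea was -0.11 against -0.01 for all genes. Only the collagen receptor gene Ddr2 was over 2-fold apart, with 1108 in lung and 2327 in trachea (2.02-fold). Of all genes compared, 2.25% were over 2-fold higher in trachea and 1.17% in lung. Sparc had 5379 and 9119, and Bmp1 1566 and 2838. Serpinh1, at 20463 and 21171, and P4ha1, at 1403 and 1653, were nearer to equal. Lox (2018 and 1646), Pcolce (3331 and 2684) and Mia3 (1218 and 1028) had the higher signal in lung.

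**Figure D4:**
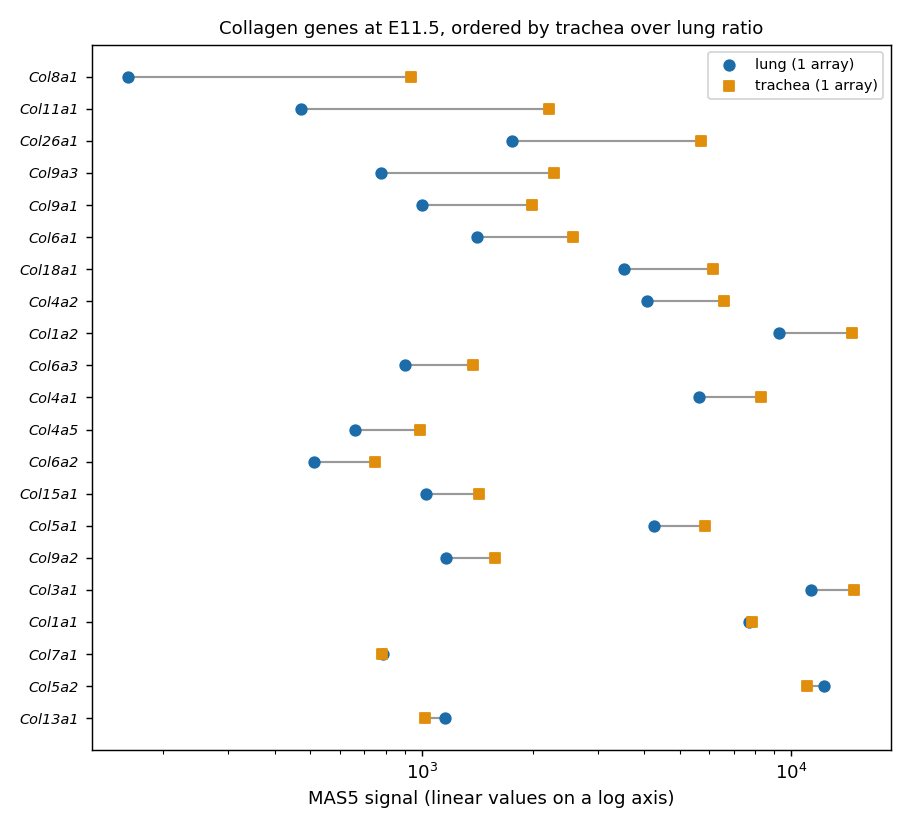
MAS5 signal (log axis) of the 21 collagens compared in E11.5 lung and trachea, 1 array each, ordered by the ratio of trachea over lung. Col8a1, Col11a1, Col26a1 and Col9a3, at the top, are over 2-fold higher in trachea, and Col7a1, Col5a2 and Col13a1, at the bottom, are the 3 with the higher signal in lung.

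The array types differ and were normalized separately, so levels cannot be set side by side across ages, and only the filter can be compared. Of the 31 collagens on both, 19 passed it at both ages and 4 (Col2a1, Col10a1, Col11a2 and Col19a1) at neither. Passing at E11.5 only were Col9a2, Col9a3 and Col11a1. Passing at E18.5 only were 5: Col4a3, Col4a4, Col12a1, Col17a1 and Col22a1. Col4a3, at 29.6 and 23.9, and Col4a4, at 54.2 and 36.0, were under the filter in E11.5 lung and trachea. Whether age or the probes set this cannot be told apart.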

How the data were processed

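Deposited values were MAS5 intensities, a linear signal per probe set and array; the authors used MAS5 per the submitters' processing notes. Every array had a 2% trimmed mean of 1500. Probe sets were named from the platform annotation; control probe sets (64 and 66) and those with several symbols or none were left out. Where a gene had several probe sets, the one highest on average in log2(signal + pseudocount) stood for it, the pseudocount being the table's 20th percentile (86.4 at E18.5, 84.3 at E11.5), and kept above the 40th percentile of that mean. The collagens had 82 probe sets at E18.5 and 44 at E11.5. Bitransgenic and control lungs were tested by limma 3.58.1 (lmFit and eBayes with trend) in R 4.3.3, two-sided, adjusted by Benjamini-Hochberg over all 12625 genes at a threshold of 0.05; the script was tested on simulated data. E11.5 genes were called apart past 2-fold with the higher signal above the median (543). Arrays were numbered in accession order within a group.

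The members and gene lists were chosen with earlier results of these data known. Values in every array were given for the 8 collagens with the smallest p, for a fixed set (Col1a1, Col1a2, Col2a1, Col3a1, Col4a1 to Col4a3, Col6a1, Col17a1 and Col18a1) and, at E11.5, for those over 2-fold apart and a fixed set. Serpinh1, P4ha1, Plod2, Lox, Pcolce, Sparc and Mia3 were the fixed set of biosynthesis genes, and Ddr2 was over 2-fold apart at E11.5. Every other gene named with values was added after its values were seen. Alternatives covered centring, quantile normalization, pseudocount, filter, probe set summary, variance model, array weights, thresholds, the Actb ratio and leaving out arrays. RefSeq windows gave sequences and positions (GRCm38.p6). Figures were drawn with matplotlib 3.10.9.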

Additional observations from a re-analysis of the deposited data

How the results depend on the processing

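No collagen passed the adjusted threshold at E18.5 in 16 of 21 alternatives, each single array left out included. The exceptions were the mean of all probe sets (2), array weights (5), an adjusted p of 0.1 (2), an unadjusted p of 0.05 (8) and the loss of both control 3 and bitransgenic 3, chosen after seeing the data (1). Of all genes, 85 passed, against 103 with the mean of all probe sets and 1339 with array weights. The count was 20 with the Actb ratio as a covariate, 189 without both arrays and 22 to 97 with 1 array left out. The count of 0 for biosynthesis, receptor and degradation genes became 10 with array weights and 1 without both arrays. Col1a1 (-0.12) turned to 0.12 with the mean of probe sets, 0.24 with array weights, 1.0 with the Actb ratio, 0.28 without both arrays, and ran from -0.49 to 0.53 with 1 array left out. Col17a1 turned to -0.037 with array weights and ran from -0.11 to 0.20 with 1 array left out, Col6a1 to 0.10 with the Actb ratio, and Col3a1 ran from -0.0092 to 0.17 with 1 array left out. The other 255 of 265 single-gene values kept their sign. At E11.5 the count of 4 became 9 over 1.5-fold, and 3 over 3-fold, with the filter at the 60th percentile (without Col8a1) and with the mean of all probe sets (without Col9a3). The cause of these differences was not tested. For the E11.5 settings no share of all genes was counted, so those collagen counts are not set against all genes. No paired analysis was possible because no label pairs the arrays of the groups. Signals near the pseudocount limit the fold of weak genes such as Col8a1.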

Other observations

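Several other collagens had overlapping E18.5 groups, and of those given here only Col6a4 had an interval reaching 2-fold. Col13a1, a transmembrane collagen of cell contacts, had signals of 10824, 10009 and 7408 in controls and 8820, 8596 and 5721 in bitransgenic lungs, a log2 change of -0.29 (SE 0.20). Both arrays numbered 3 were lowest in their group. Col23a1, of the same class, had 1661, 1813 and 2109 against 2267, 1790 and 2747, a change of 0.26 (SE 0.18). Col16a1, a fibril-associated collagen, had 2649, 2484 and 3304 against 2921, 2832 and 3599, a change of 0.15 (SE 0.16). Col6a4 had 808, 739 and 442 against 978, 236 and 890, a change of -0.07 (SE 0.42), so the spread within a group exceeded any difference between groups. Plod1, a lysyl hydroxylase, had 2355, 3088 and 6598 against 2067, 2832 and 1992, a change of -0.66 (SE 0.32) with control 3 above all other arrays. On the probe sets used, Col1a1 and Plod1 both had control signals over 2-fold above the rest of their group in that array. The second Col1a1 probe set did not, at 6002, 5553 and 5735 in controls.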
